A study of Arabis alpina with 12 samples.

Results

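Lateral buds of the dormant zone (V2) of Arabis alpina, ecotype Pajares, were compared 5 days (d) after the end of a long cold period with V2 buds taken as the cold ended (0 d). The V2 buds make up 6 of the 12 RNA-seq libraries of the series, 3 at 5 d and 3 at 0 d, chosen by the zone and the harvest time in the labels. The other 6 libraries are lateral buds of the growing zone (V3), again 3 at 5 d and 3 at 0 d, and are used below only to set the V2 change beside theirs. Every plant of the 4 groups was raised over 8 weeks in long days, with 16 h of light held at 20 °C and nights of 8 h held at 18 °C, and was then cooled to 4 °C over 12 weeks. The 5 d plants had also spent those days back in the warm long days. The time since cold, the warmth itself, any change in light hours and any change in bud size or makeup thus cannot be told apart in this comparison. No uncooled plants, mutants or treated plants are among the groups, and the clock hour of harvest and the number of plants or buds in each library are not stated in the labels.

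Arabis alpina is a perennial relative of Arabidopsis thaliana whose stem carries a zone of buds that stay arrested after cold between zones that grow. A lateral bud holds a shoot meristem and young leaves, and its arrest is known to be set by hormones from the shoot and by the supply of sugar. In A. thaliana the class of homeobox genes HB21, HB40 and HB53 is switched on by the branching repressor BRC1 and raises abscisic acid in arrested buds through NCED3, while outgrowth needs cell division and new ribosomes.

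The 6 V2 libraries held between 12252622 and 22581638 reads over 19722 genes, as recovered from the deposited normalized counts. The lowest total belongs to V2 0 d replicate 3, which was listed at 0 in 34.0% of the genes whose partner libraries both held at least 20, against 1.47% to 2.78% in the other 11 libraries. A 0 was left out where a partner library of the same group reached 20 or where the deposited FPKM (fragments scaled by gene length and library size) was at least 1, which removed 6541 values of that library and 881 to 1213 of each other one. A bud identity could be checked by few genes, since A. thaliana homologues were paired only with the 3884 genes that appear in the authors' tables of differing genes. The boundary and axillary meristem genes CUC1, CUC3 and RAX1 had reads in every V2 library. None of the 4 shoot meristem markers STM, WUS, CLV3 and KNAT1 was among the paired genes, and neither was any of the 9 markers of expanded green leaf.

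Over 5 d the V2 buds lost heat shock and chaperone transcripts, ribosomal protein transcripts and transcripts of the division cycle, and gained transcripts of ethylene and jasmonate signalling, nitrogen assimilation, cuticle and phenylpropanoid metabolism, while pectin enzymes went both ways. Of 16487 genes tested with limma on log2(normalized count + 1), 4092 (24.8%) were called at an adjusted p under 0.05. They divide into 2173 genes (13.2%) that rose at 5 d and 1919 (11.6%) that fell. A change of at least 2-fold was called for 1687 genes (10.2%), of which 1074 (6.51%) rose and 613 (3.72%) fell. The median change of all genes tested was 0.00 on the log2 scale. Without V2 0 d replicate 3 the count was 3221 of 16108 genes. It was 2267 of 11175 without V2 0 d replicate 2, 2438 of 16019 without V2 5 d replicate 1 and 2700 of 16009 without V2 5 d replicate 2, and 2165 with every 0 kept as deposited.

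The members of the gene lists below could be found only among genes that the authors had already listed as differing in some comparison of the series, this one included. The background for a list is therefore the 2939 listed genes with FPKM that were tested, of which 1461 (49.7%) were called, 32.1% higher and 17.6% lower at 5 d. Their median log2 change was 0.46 by counts. Bulk libraries cannot tell fewer cells of a type from less RNA per cell, for any gene named here.

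**Figure D1:**
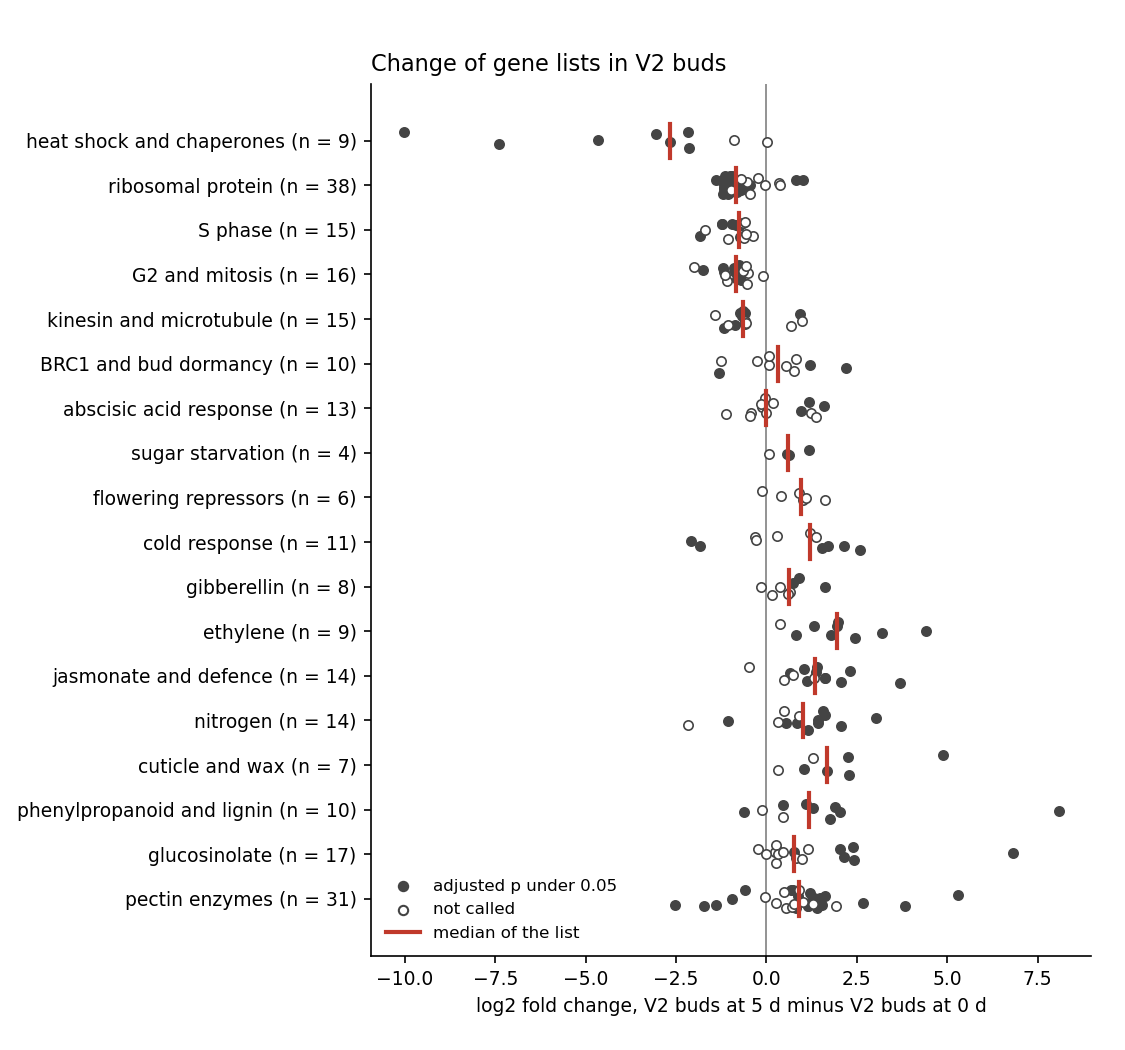
Log2 fold change of the tested members of 18 gene lists in V2 buds, 5 d minus 0 d. Filled points passed limma's adjusted p of 0.05, open points did not, and the red bar is the median of the list. Heat shock and chaperone genes lie furthest to the left, with a median of -2.66, and the ethylene genes have a median of 1.95.

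Heat shock factors and chaperones fell furthest, with the lowest median of the 45 gene lists. These proteins hold or refold damaged proteins, and their genes are switched on by heat shock transcription factors. Of 9 members tested, 7 fell at 5 d and none rose, with a median log2 change of -2.66. HSFA2 (Aa_G290430), a factor that sustains the heat response in A. thaliana, had 123, 391 and 247 normalized counts in V2 buds at 5 d, against 4113 and 8295 (the 0 of replicate 3 left out) at 0 d. The groups did not overlap, and it fell by 4.67 on the log2 scale (SE 0.55, limma adjusted p = 0.000429). Over all genes tested the groups did not overlap with 5 d lower for 24.4% and with 5 d higher for 25.6%. With the left-out 0 of HSFA2 kept as deposited its change was -0.50 (limma adjusted p = 0.919), and its FPKM was 2.79, 6.95 and 4.44 at 5 d, against 74.3, 149 and 197 at 0 d. HSP23.6-MITO (Aa_G831180), a small chaperone of mitochondria, had 7.97 and 23.8 (the 0 of replicate 3 left out) normalized counts at 5 d, against 2741, 2538 and 2231 at 0 d, and likewise did not overlap between times (log2 fold change -7.39, SE 0.57, limma adjusted p = 0.000125). The protein disaggregase gene CLPB4 (Aa_G169110) stood at 869.5, 901 and 954 normalized counts at 5 d and at 4456, 6473 and 6538 at 0 d. Its libraries lay close together within each time (log2 fold change -2.66, SE 0.25, limma adjusted p = 5.00e-05).

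The factor HSFA7A (Aa_G695970) was listed at 0 in all 3 V2 libraries at 5 d, against 630.0, 1270.0 and 1409 normalized counts at 0 d. Its FPKM was 0, 0 and 0.0878 at 5 d, against 32.8, 60.8 and 74.5 at 0 d, so both measures put it far lower at 5 d. BAG6 (Aa_G381050), a calmodulin-binding co-chaperone, had 949, 1054 and 961 normalized counts at 5 d, against 6069.7, 6803 and 13684 at 0 d (log2 fold change -3.07, SE 0.34, limma adjusted p = 0.00018), with V2 0 d replicate 3 the highest of the 6. Among the 12 largest falls among called genes that averaged 100 or more, did not overlap between times and had no zero left out were 3 further chaperone genes, an HSP20-like gene (Aa_G199710, homologue AT2G29500), a DNAJ gene (Aa_G194750, homologue AT2G20560) and ATERDJ3A (Aa_G24130), a DNAJ protein of the endoplasmic reticulum. The HSP20-like gene had 796, 996 and 782 normalized counts at 5 d, against 16319, 18885 and 19124 at 0 d. Its log2 fold change was -4.40 (SE 0.26, limma adjusted p = 8.79e-07), that of the DNAJ gene was -3.23 and that of ATERDJ3A was -3.09. The members not called were the repressor-class factors HSFB2A and HSFB2B, and HSFB2B changed by -0.89 with overlapping groups.

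A wider set of 40 genes whose annotation names a heat shock protein or chaperone had 19 lower and 8 higher members at 5 d, with a median of -1.02. The members that rose include the heat shock factor HSF A4A, the small heat shock protein ACD32.1 and the DNAJ gene J11, and also the copper carrier CCH and the Rubisco assembly factor RbcX1, which the annotation words take in. In V3 buds 7 of 8 heat shock members tested there fell, with a median of -2.59, and 5 fell in both zones. HSFB2A and HSFB2B fell in V3 and were not called in V2, whereas HSP22.0 fell in V2 and was not called in V3. The share of all genes called in V3 buds was 25.5%, with 14.1% higher and 11.3% lower. Of 2680 listed genes with FPKM tested in both zones, 1034 rose and 477 fell in V3. The V2 and V3 changes of CLPB4 were -2.66 and -2.69, with a difference of 0.03 (SE 0.36). Over all genes the difference between the V2 change and the V3 change was called for 1243 of 16077 genes (7.73%, 3.37% with the V2 change above and 4.37% with it below). Calls were more frequent among 2811 listed genes with FPKM, 255 with the V2 change above and 343 with it below. Of the 8 members tested for a difference between zones, 1 was called, HSFB2B, whose V2 change lay 1.87 above its V3 change (limma adjusted p = 0.0481).

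**Figure D2:**
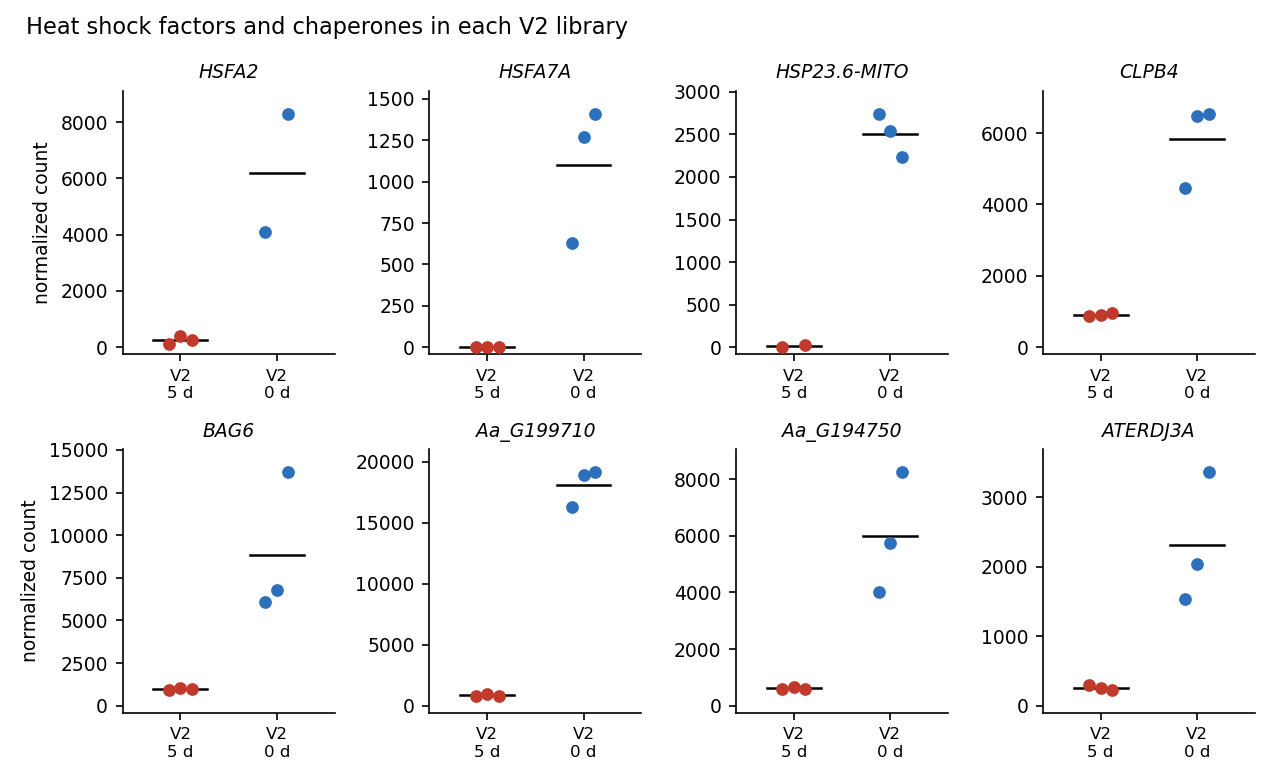
Normalized counts (linear axis from 0) of 8 heat shock factor and chaperone genes in each V2 library, 5 d left and 0 d right, with the mean as a bar. In all 8 genes every value drawn at 5 d lies below every value drawn at 0 d, and HSFA7A is listed at 0 at 5 d. The left-out zeros of HSFA2 at 0 d and of HSP23.6-MITO at 5 d are not drawn.

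Ribosomal protein transcripts fell together, by a smaller amount. Of 43 genes with that name in their annotation 38 were tested, 28 fell at 5 d and 2 rose, with a median log2 change of -0.84 and a range of -1.39 to 1.00. The members that rose include S6K2, a kinase that acts on ribosomal protein S6 and is no ribosomal protein itself. RS27A (Aa_G57970), of the small cytosolic subunit, had 1728, 2579.9 and 2604 normalized counts at 5 d, against 5855, 5555 and 6488 at 0 d. The groups did not overlap (log2 fold change -1.39, SE 0.18, limma adjusted p = 0.000458). The gene of an S8e family protein (Aa_G646180) had 3965, 4655 and 3935 normalized counts at 5 d, against 10138, 9392 and 9270.4 at 0 d (log2 fold change -1.201, SE 0.13, limma adjusted p = 0.000112). PRPL11, of the plastid ribosome, changed by -0.68.

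Transcripts of DNA replication and mitosis fell as well. Among S phase genes 7 of 15 tested fell and none rose, and all 15 changes were negative, with a median of -0.75. Their share of calls, 46.7%, is near the 49.7% of listed genes called in either direction. The share of listed genes called lower was 17.6%. The count of lower S phase genes was 3 without V2 0 d replicate 2, V2 5 d replicate 1 or V2 5 d replicate 2, 4 without V2 0 d replicate 3 and 11 without V2 5 d replicate 3. MCM4 (Aa_G543470), a subunit of the replicative helicase, had 1875, 1840.1 and 1736 normalized counts at 5 d, against 2926, 3207 and 2901 at 0 d, without overlap (log2 fold change -0.73, SE 0.16, limma adjusted p = 0.00825). The S phase regulator E2FA had 293, 156 and 259.5 at 5 d, against 457, 553 and 622 at 0 d, and changed by -1.24 (SE 0.24, limma adjusted p = 0.00482). MCM3, ORC2 and ORC6, of the helicase and the origin recognition complex, fell by 0.83, 1.23 and 1.83.

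Of 16 mitotic genes tested, 8 fell and none rose, and again all 16 changes were negative, with a median of -0.84. Their share of calls, 50%, is likewise near that of listed genes in either direction and above that of listed genes called lower. Without V2 5 d replicate 1 or 2 the count of lower mitotic genes was 5 in each case, and by FPKM it was 16, which includes 1 gene not tested by counts. The mitotic cyclin CYCB1;2 (Aa_G570070) had 837, 643 and 1121 normalized counts at 5 d, against 1823, 2084 and 1877 at 0 d. All libraries at 5 d lay below all libraries at 0 d (log2 fold change -1.19, SE 0.22, limma adjusted p = 0.00372). HIK (Aa_G718690), a kinesin needed to build the new cell plate, had 522, 523 and 791 at 5 d, against 1355, 1497 and 1236 at 0 d (log2 fold change -1.18, SE 0.21, limma adjusted p = 0.0037). KNOLLE, the syntaxin of the cell plate, had 1159, 1134 and 1554 at 5 d, against 2021, 2293 and 1857 at 0 d. It fell by 0.69 (SE 0.17, limma adjusted p = 0.0151), while CYCB2;3 at -2.01 did not pass (limma adjusted p = 0.0501). Of 15 kinesin and microtubule genes found by annotation, 8 fell and 1 rose, CC2, a partner of the cellulose synthase complex. The lower count was 4 without V2 5 d replicate 1 or 2 or V2 0 d replicate 2. The core histone genes HTB2, HTA6 and HTA13 fell by 1.28, 1.08 and 0.87, the only lower members among 13 genes with a histone annotation. The cyclin-dependent kinase inhibitors SIM and SMR8 rose by 0.99 and 1.07 (limma adjusted p = 0.0113 and 0.0171), and SMR1, at 0.97, did not pass. All 3 inhibitors were called higher in V3 buds as well, SIM at 1.91, SMR8 at 0.85 and SMR1 at 2.04. None of the 3 had a difference between zones called.

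In V3 buds no S phase gene and no mitotic gene was called by limma, and at an unadjusted p under 0.05 the counts were 1 and 0. Their medians in V3 were -0.02 and -0.02, and 10 of 37 ribosomal protein genes tested there fell, with a median of -0.42. Among the growth genes the difference between zones was called for 7 of 37 ribosomal protein genes, 3 of 16 mitotic genes and 1 of 15 S phase genes, each time with the V2 change below the V3 change. The same direction was called for 343 of 2811 listed genes with FPKM, the background for these counts. CYCA1;1, a cyclin of S phase and mitosis, had 584, 579 and 586 normalized counts in V2 buds at 5 d, against 1057, 1191 and 979.9 at 0 d. In V3 buds it had 2078, 1973 and 2332 at 5 d, against 2587, 1648 and 1447 at 0 d. The changes were -0.88 in V2 and 0.21 in V3, and their difference of -1.09 was called (SE 0.26, limma adjusted p = 0.0296).

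**Figure D3:**
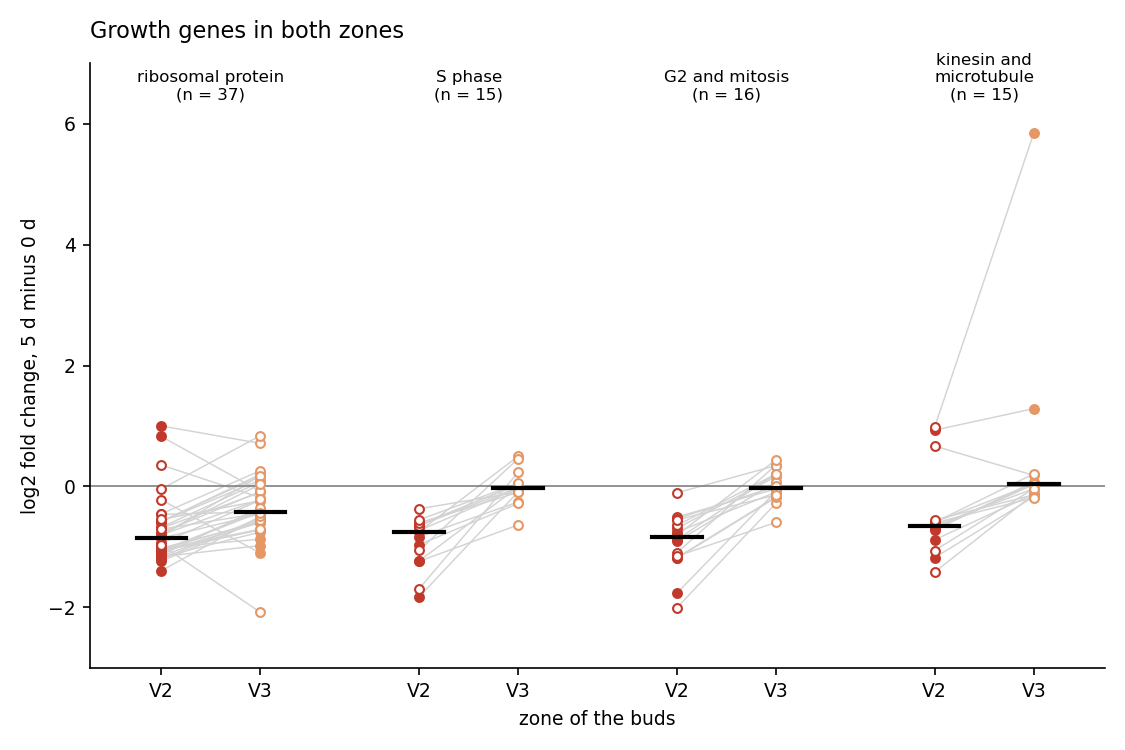
Log2 fold change, 5 d minus 0 d, of growth genes in V2 buds (red, left) and V3 buds (orange, right), with grey lines joining each gene and black bars at the medians. Filled points passed limma's adjusted p of 0.05; every S phase and mitotic gene lies below 0 in V2, and none is called in V3.

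Genes that mark arrested buds went both ways. Of 10 bud dormancy genes tested 2 rose, 1 fell and 7 were not called, with a median of 0.31. HB40 (Aa_G223150) was the member that fell, with 101, 91.1 and 127 normalized counts at 5 d, against 280.3, 353 and 179 at 0 d (log2 fold change -1.2997, SE 0.26, limma adjusted p = 0.00628). HB53 (Aa_G147020) had 1682, 2804 and 2409 at 5 d, against 3864, 2401 and 2058 at 0 d, and the groups overlapped (log2 fold change -0.25, 95% interval -1.34 to 0.84, limma adjusted p = 0.749). HB21 (Aa_G483690) was low throughout, with 13.7, 126 and 67.4 at 5 d, against 33.8 and 24.1 (the 0 of replicate 3 left out) at 0 d (log2 fold change 0.77, limma adjusted p = 0.484). Without V2 5 d replicate 1 its change was 1.66 and was called (limma adjusted p = 0.0338). The abscisic acid synthesis gene NCED3 (Aa_G56170) had 1466, 2314 and 2312 at 5 d, against 2193, 1111 and 1046 at 0 d, also with overlap (log2 fold change 0.54, 95% interval -0.78 to 1.86, limma adjusted p = 0.546).

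The 2 dormancy genes that rose were HIS1-3 and KMD1. HIS1-3 (Aa_G197310), a linker histone induced by drought and abscisic acid, had 2902, 2917 and 2507 normalized counts at 5 d, against 1219, 581 and 308 at 0 d. The libraries at 0 d spread widely but stayed below those at 5 d (log2 fold change 2.199, SE 0.61, limma adjusted p = 0.0249). KMD1 (Aa_G312050), an F-box protein that acts against cytokinin signalling, had 4108, 5363 and 3487 at 5 d, against 2550.1, 1989.8 and 1252 at 0 d (log2 fold change 1.198, SE 0.30, limma adjusted p = 0.0163). HIS1-3 lost its call without V2 0 d replicate 2 or 3 or V2 5 d replicate 1 or 2 (limma adjusted p = 0.0562, 0.0809, 0.0708 and 0.0669), and KMD1 without V2 0 d replicate 3 or V2 5 d replicate 2 (limma adjusted p = 0.0504 and 0.0615). DRMH1 (Aa_G438760), which is associated with dormancy, had 2803, 4413 and 4264 at 5 d, against 8719 and 9160.0 (the 0 of replicate 3 left out) at 0 d. Its groups did not overlap, and the change of -1.25 was not called (95% interval -3.17 to 0.67, limma adjusted p = 0.317). In a fit of the 6 V2 libraries alone the same change was called (limma adjusted p = 0.0157), with zeros as deposited it was 3.12 (limma adjusted p = 0.452), and over all alternatives the limma adjusted p ran up to 0.507. Its relative AT1G56220 (Aa_G229990) changed by 0.82 and was not called either. The rise of HIS1-3 and the fall of HB40 were also called in V3 buds. There they changed by 2.19 and -1.93 (limma adjusted p = 0.0237 and 0.000454).

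Abscisic acid response genes were mixed, with 3 of 13 higher, none lower and a median of -0.02. On recovered reads edgeR and DESeq2 each called 5 members higher and 2 lower. The phosphatase ABI1 (Aa_G43090), a brake on abscisic acid signalling, had 2552, 2794 and 2427 normalized counts at 5 d, against 1001, 706 and 867 at 0 d, without overlap (log2 fold change 1.61, SE 0.18, limma adjusted p = 0.000177). The receptor PYL4 rose by 0.95 and the dehydration gene RD22 by 1.18, whereas RAB18 at 1.38 and ABF2 at 1.23 were not called. BG1, a glucosidase that frees stored abscisic acid, had 112112, 95927 and 91133 at 5 d, against 31264, 26364 and 22950.1 at 0 d (log2 fold change 1.90, limma adjusted p = 0.00873).

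Of 4 low-sugar genes tested, 3 rose: the trehalose phosphate synthase-like genes TPS9 and TPS11 and the transcription factor BZIP1, which is activated when sugar is short. TPS9 (Aa_G562070) had 4892, 5911 and 4621 normalized counts at 5 d, against 3447, 3618 and 2851 at 0 d (log2 fold change 0.64, SE 0.15, limma adjusted p = 0.0139). BZIP1 (Aa_G91520) had 418, 434 and 386 at 5 d, against 206, 189 and 156 at 0 d (log2 fold change 1.17, SE 0.24, limma adjusted p = 0.00687). TPS11 rose by 0.57 (limma adjusted p = 0.0406) and BCAT2 was not called. The call of TPS11 ended in 5 of the 6 fits that left out 1 library, all but that without V2 5 d replicate 3, with limma adjusted p from 0.0532 to 0.129. It also ended with zeros as deposited, with total scaling and with the replicate block (limma adjusted p = 0.0914, 0.0555 and 0.0668). The call of TPS9 ended without V2 5 d replicate 2 (limma adjusted p = 0.054). In V3 buds these 3 genes changed by -1.48, -0.92 and -1.17 in that order, and all 3 differences between zones were called, with V2 above V3 by 2.12, 1.49 and 2.34.

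**Figure D4:**
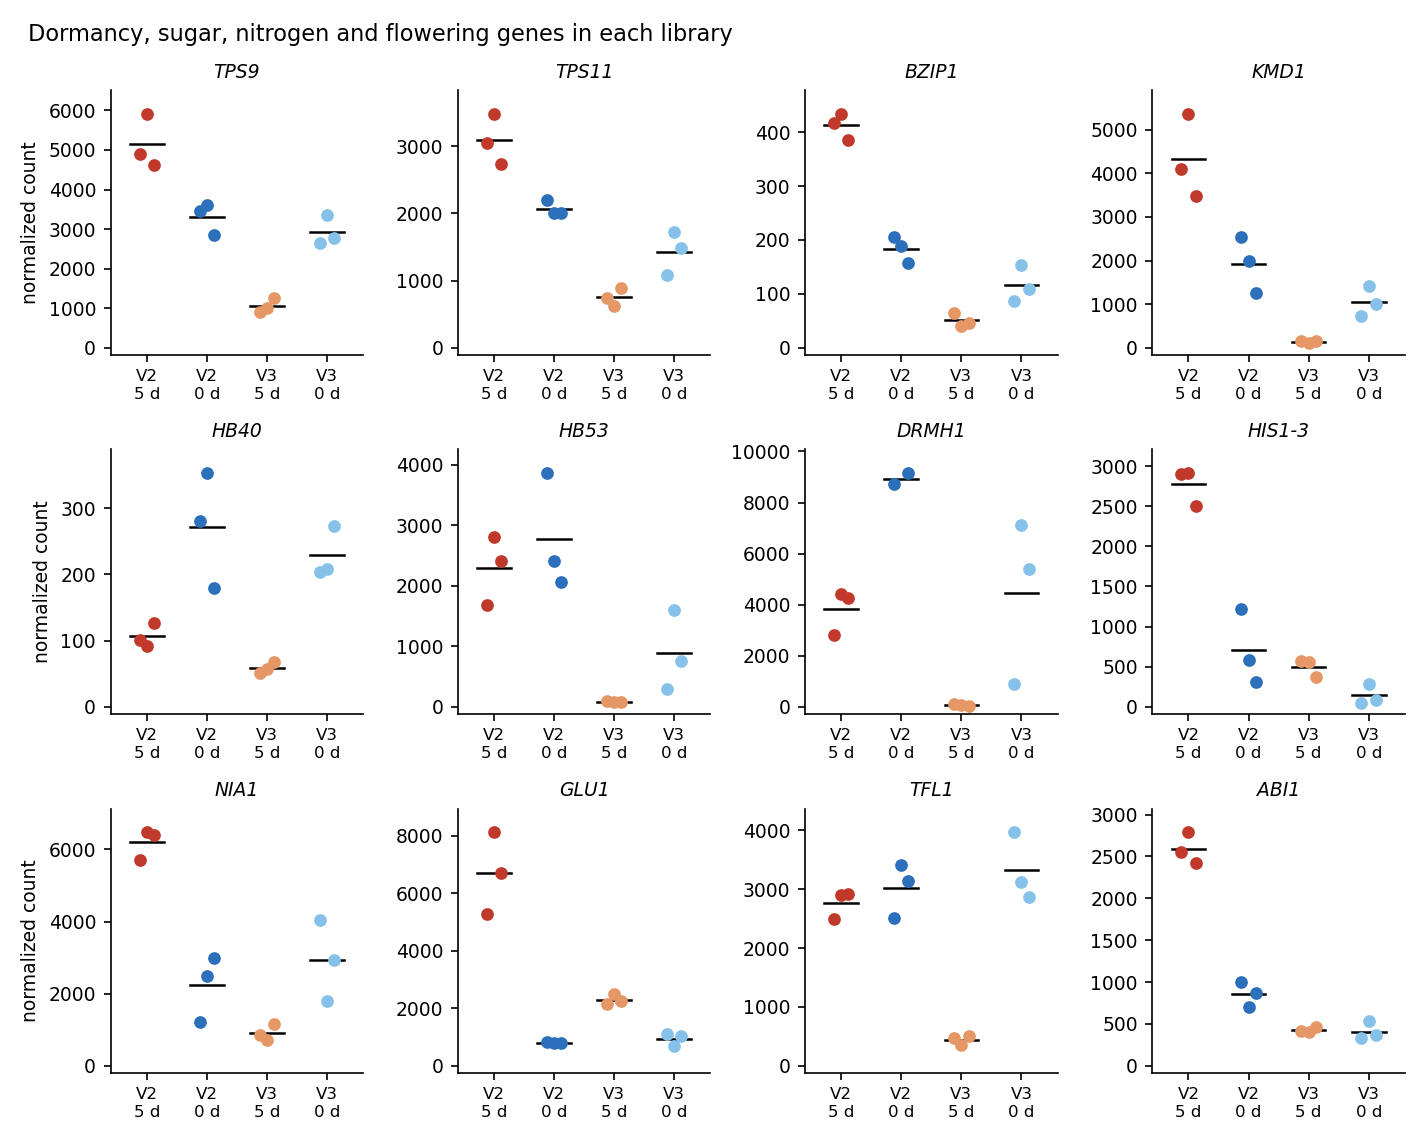
Normalized counts (linear axis from 0) of 12 genes in each library, from left to right V2 at 5 d, V2 at 0 d, V3 at 5 d and V3 at 0 d, with the mean as a bar. TPS9, TPS11, BZIP1, KMD1 and NIA1 are higher at 5 d than at 0 d in V2 and lower at 5 d than at 0 d in V3, and the V2 libraries of TFL1 overlap between times. Left-out zeros, such as that of DRMH1 in V2 at 0 d, are not drawn.

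Genes of ethylene and jasmonate signalling rose together. Of 9 ethylene genes tested 8 rose and none fell, all 9 changes were positive and the median was 1.95. Without V2 0 d replicate 2 the count was 5. The transcription factor ERF6 (Aa_G607250) had 1914, 1212 and 1233 normalized counts at 5 d, against 159.8, 98.4 and 236 at 0 d, with the groups well apart (log2 fold change 3.19, SE 0.75, limma adjusted p = 0.0126). ERF1 (Aa_G239900), which joins ethylene and jasmonate responses, had 156, 87.2 and 89.8 at 5 d, against 3.65, 4.02 and 4.53 at 0 d (log2 fold change 4.42, SE 0.74, limma adjusted p = 0.00249). ERF5 and ERF11 rose by 1.97 and 1.78, and EBF2, an F-box protein that removes the ethylene factor EIN3, rose by 1.32. The receptor gene ETR2 changed by 0.37 and was not called. In V3 buds 5 of 9 ethylene genes rose and none fell, with a median of 1.04.

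Among 14 jasmonate and defence genes, 10 rose and none fell, with a median of 1.34. LOX2 (Aa_G49590), the plastid lipoxygenase at the start of jasmonate synthesis, had 5509.8, 6172 and 2560.4 normalized counts at 5 d, against 308, 396 and 334 at 0 d. Every library at 5 d was several times above those at 0 d (log2 fold change 3.68, SE 0.38, limma adjusted p = 0.000184). The allene oxide cyclase AOC3, a later enzyme of that route, had 11603, 7472 and 7297 at 5 d, against 3064, 1972 and 3559.5 at 0 d (log2 fold change 1.63, SE 0.27, limma adjusted p = 0.00253). The signalling repressors JAZ2 and JAZ6 rose by 1.05 and 1.61, while AOS, at 0.72, missed the threshold (limma adjusted p = 0.0781). In V3 buds 11 of 13 members tested there rose, with a median of 1.78.

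Of 8 gibberellin genes 3 rose: the receptor GID1A by 0.90, the growth repressor RGL3 by 0.72 and DDF1 by 1.63, whose product lowers gibberellin. That share, 37.5%, is near the 32.1% of listed genes called higher. The receptor of karrikins, KAI2, had 1727, 1922 and 1758 normalized counts at 5 d, against 676, 668 and 716 at 0 d, and rose by 1.39 (SE 0.15, limma adjusted p = 0.000169). Among auxin response genes IAA7 and IAA14, both repressors, rose out of 6 tested (33.3%, again near the share of listed genes called higher). IAA7 had 252, 283 and 218 at 5 d, against 4.57 and 38.5 (the 0 of replicate 2 left out) at 0 d (log2 fold change 4.08 by counts and 2.82 by FPKM). The brassinosteroid synthesis gene CPD fell by 1.29 (limma adjusted p = 0.000506), and of the cytokinin response factors CRF5 rose by 0.91 while CRF1 fell by 0.81.

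Nitrogen assimilation genes rose. Of 14 tested, 9 rose and 1 fell, with a median of 1.02. GLU1 (Aa_G140770), the ferredoxin-dependent glutamate synthase, had 5275, 8131 and 6711 normalized counts at 5 d, against 826, 799 and 783 at 0 d, the values at 0 d lying within a narrow range. Its log2 fold change was 3.04 (SE 0.19, limma adjusted p = 1.32e-06). The nitrate reductase gene NIA1 (Aa_G121580) had 5693, 6486 and 6407 at 5 d, against 1226, 2487 and 2977 at 0 d (log2 fold change 1.57, SE 0.35, limma adjusted p = 0.0102). The ammonium transporter AMT1;1 (Aa_G276430) had 4462, 3796 and 4385 at 5 d, against 1618, 1404 and 1678 at 0 d (log2 fold change 1.43, SE 0.22, limma adjusted p = 0.00147). AMT2;1 rose by 1.43 and the nitrogen-responsive regulator LBD39 by 1.15, and the member that fell was PII, the plastid nitrogen sensor, at -1.07. In V3 buds 4 of 13 members tested there rose and 4 fell, and 7 of 14 tested for the difference had a V2 change called above the V3 change. For NIA1 the V3 change was -1.64 and the difference 3.21 (SE 0.50, limma adjusted p = 0.0033).

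Starch breakdown and cold genes went both ways. The beta-amylase BAM3 (Aa_G16660), which releases maltose from starch, had 6939, 5198 and 5807 normalized counts at 5 d, against 1551, 914 and 2526 at 0 d (log2 fold change 1.96, SE 0.33, limma adjusted p = 0.00253). BAM5 was listed at 0 in all 3 libraries at 0 d and at 257, 184 and 221 at 5 d, with FPKM of 6.77, 6.02 and 6.83 at 5 d, against 0.435, 0.212 and 0.753 at 0 d. The sucrose synthase SUS1 (Aa_G646640) had 1249, 1440.0 and 1606 at 5 d, against 3763, 4475 and 5322 at 0 d, and fell by 1.65 (SE 0.16, limma adjusted p = 6.03e-05). Galactinol synthase GOLS3, a cold-induced enzyme of raffinose synthesis, had 211, 185 and 149 at 5 d, against 625, 517 and 820.2 at 0 d (log2 fold change -1.83, limma adjusted p = 0.00785). ADH1 fell by 2.08. Among 11 cold response genes, GOLS3 and ADH1 were the only members that fell, and 4 rose, including the zinc finger genes ZAT10, at 2.58, and CZF1, at 2.16, and the repressor RAV1, at 1.70. The cold regulators CBF3 and CBF4 changed by 1.21 and 1.39 and were not called. The count of 4 was 0 or 1 without V2 0 d replicate 2 or any 1 of the V2 5 d libraries.

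Genes of the cell surface and of phenylpropanoids rose. In the cuticle list 5 of 7 rose and none fell, all 7 changes were positive and the median was 1.67. LTP4 (Aa_G499040), a lipid transfer protein, had 4084, 3952 and 1750.3 normalized counts at 5 d, against 198, 48.2 and 109.9 at 0 d, without overlap in spite of the spread at both times (log2 fold change 4.89, SE 0.53, limma adjusted p = 0.000141). KCS5, which lengthens wax fatty acids, had 3813, 3563 and 3177 at 5 d, against 566, 762 and 894 at 0 d (log2 fold change 2.27, SE 0.43, limma adjusted p = 0.00447). The wax exporter CER5 rose by 1.67, the wax regulator SHN2 by 2.29 and the cutin enzyme GPAT6 by 1.05. Of 10 phenylpropanoid genes 7 rose and 1 fell, CAD4. PAL2, at the entry of the pathway, had 1316, 2033 and 2217 at 5 d, against 865, 644 and 728 at 0 d (log2 fold change 1.29, SE 0.26, limma adjusted p = 0.00556). F5H and the ligases 4CL1 and 4CL3 rose by 1.75, 1.89 and 2.04, and the flavonoid genes CHS and CHI by 1.36 and 0.99. CCR2 was listed at 0 in the 3 libraries at 0 d and at 477, 229.8 and 179 at 5 d, with FPKM of 22.1, 11.1 and 9.10 at 5 d, against 0.650, 0 and 0.195 at 0 d. These lists rose in V3 buds too. There 6 of 6 cuticle genes tested rose, with a median of 2.67, and 10 of 10 phenylpropanoid genes, with a median of 2.35. For 5 of 10 phenylpropanoid genes the V2 change was called below the V3 change.

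Pectin enzymes went both ways. Of 31 genes annotated as pectin methylesterases, their inhibitors, lyases or polygalacturonases, 16 rose and 5 fell, with a median of 0.89. Without V2 5 d replicate 1 the counts were 10 and 2. The methylesterase PME61 (Aa_G262320) had 1037, 822 and 617 normalized counts at 5 d, against 71.2, 62.2 and 38.5 at 0 d (log2 fold change 3.84, SE 0.27, limma adjusted p = 1.10e-05). PME5 (Aa_G162810), of the same family, had 694, 828 and 977 at 5 d, against 1892, 2598 and 2128 at 0 d, and fell by 1.41 (SE 0.15, limma adjusted p = 0.000128). Among wall-loosening genes EXPA10, an expansin, rose by 1.08 and XTH30 by 3.23, whereas XTH16 fell by 1.45, the last 2 being enzymes that cut and rejoin xyloglucan. Glucosinolate genes had 6 of 17 higher (35.3%, near the 32.1% of listed genes called higher) and none lower. CYP79B2, of indole glucosinolate synthesis, rose by 2.42 and the myrosinase TGG2 by 2.02. CYP79B3, which acts at the same step as CYP79B2, was listed at 0 in the 3 libraries at 0 d and at 226, 177 and 35.0 at 5 d, with FPKM of 5.56, 4.62 and 0.895 at 5 d, against 0.0910, 0.0499 and 0.109 at 0 d. In V3 buds 14 of 15 members tested there rose, and 6 of 15 had a V2 change called below the V3 change.

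None of the 6 flowering repressors tested was called by limma, and at an unadjusted p under 0.05 the count was 3. On recovered reads edgeR and DESeq2 each called 3 higher, and by FPKM 4 were called higher. TFL1 (Aa_G789610), which keeps shoot meristems from becoming flowers, had 2497, 2895 and 2916 normalized counts at 5 d, against 2511, 3416 and 3144 at 0 d, with overlapping groups (log2 fold change -0.12, 95% interval -0.49 to 0.25, limma adjusted p = 0.648). SVP (Aa_G311490) had 6291, 5811 and 4737 at 5 d, against 4225, 4001 and 4425 at 0 d, and although the groups did not overlap the change of 0.40 was not called (SE 0.16, limma adjusted p = 0.0963). SMZ had 44.4, 85.2 and 55.7 at 5 d, against 18.3 and 54.4 (the 0 of replicate 2 left out) at 0 d (log2 fold change 0.89, limma adjusted p = 0.253). In V3 buds TFL1 changed by -2.90 and SVP by -0.52, and the differences between zones, 2.78 and 0.92, were called (limma adjusted p = 3.16e-05 and 0.0367). The flowering promoter SPL15 fell in V2 by 0.87 (limma adjusted p = 0.0444).

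Boundary and meristem genes divided. CUC1 (Aa_G1120), which marks organ boundaries, had 173, 175 and 126 normalized counts at 5 d, against 352, 320.3 and 353 at 0 d, and fell by 1.12 (SE 0.20, limma adjusted p = 0.00303). CUC3 fell by 0.98, and TCP15, a growth regulator, by 0.29. RAX2, which acts in axillary meristem formation, had 223, 175 and 137 at 5 d, against 64.8, 57.2 and 83.8 at 0 d (log2 fold change 1.36 by counts and 0.58 by FPKM), and the organ size gene ARGOS rose by 1.54. Light and plastid genes divided too. The chloroplast regulators GLK1 and GLK2 rose by 0.98 and 1.54, while PORA, which makes chlorophyll precursor in light, had 2938, 3134 and 2936 at 5 d, against 6319, 9772 and 8423 at 0 d (log2 fold change -1.42, SE 0.19, limma adjusted p = 0.000574). The shade-response gene HB4 had 297, 305 and 298 at 5 d, against 761, 892 and 756 at 0 d, and fell by 1.41 (SE 0.12, limma adjusted p = 2.36e-05). Of 7 clock genes PRR5 alone was called, at 1959.9, 2276 and 2322 at 5 d, against 605, 707 and 1034 at 0 d (log2 fold change 1.52, limma adjusted p = 0.0046). 

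The largest changes of single genes within the same limits included metabolic genes outside the lists. FBA6, a fructose-bisphosphate aldolase, was listed at 0 in the 3 libraries at 5 d, against 409, 739.9 and 719 at 0 d, with FPKM of 0.166, 0.797 and 0.808 at 5 d, against 30.8, 38.6 and 32.3 at 0 d. The carbonic anhydrase CA1 (Aa_G593160) had 1192, 1704 and 399 at 5 d, against 47.5, 73.3 and 61.2 at 0 d (log2 fold change 3.94, SE 0.46, limma adjusted p = 0.000234). In V3 buds it changed by 10.02, and the difference was -6.08 (limma adjusted p = 0.000206). A putative phosphoglucomutase (Aa_G163330, homologue AT1G70820) was listed at 0 at 0 d and at 414, 552 and 379.9 at 5 d, with FPKM of 11.3, 12.8 and 8.66 at 5 d, against 0.912, 0.875 and 0.729 at 0 d. The lipase-like gene TLL1 had 1019.8, 436 and 304 at 5 d, against 0, 5.02 and 0 at 0 d, and by FPKM it changed by 3.64. ZW9, whose function is not given in the files, had 1573, 1077 and 833 at 5 d, against 142, 12.0 and 17.0 at 0 d.

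Some of the largest changes by normalized counts were not seen by FPKM. ATDAD1, a subunit of the protein glycosylation complex, was listed at 0 at 0 d and at 666, 421 and 936 at 5 d, but its FPKM was 0, 0 and 0.0496 at 5 d, against 0.152, 0.610 and 0.121 at 0 d. A gene of transcription factor IIIC (Aa_G315150) was listed at 0 at 5 d, against 1360.4, 175 and 216 at 0 d, while its FPKM changed by -0.12. A DUF593 gene (Aa_G55180) had 2442, 2363 and 2229 at 5 d, against 70.3, 76.3 and 58.9 at 0 d, and its FPKM changed by -0.30. For these genes the size and direction of the change are uncertain. Of the 1461 called genes with FPKM, 1445 (98.9%) had the same sign by both measures and 1328 were also called by FPKM. Of the 90 such genes with 1 group listed at 0, 82 had the same sign and 62 were called by FPKM, and adjusted p-values of such genes may be too low because their zeros show no spread.

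**Figure D5:**
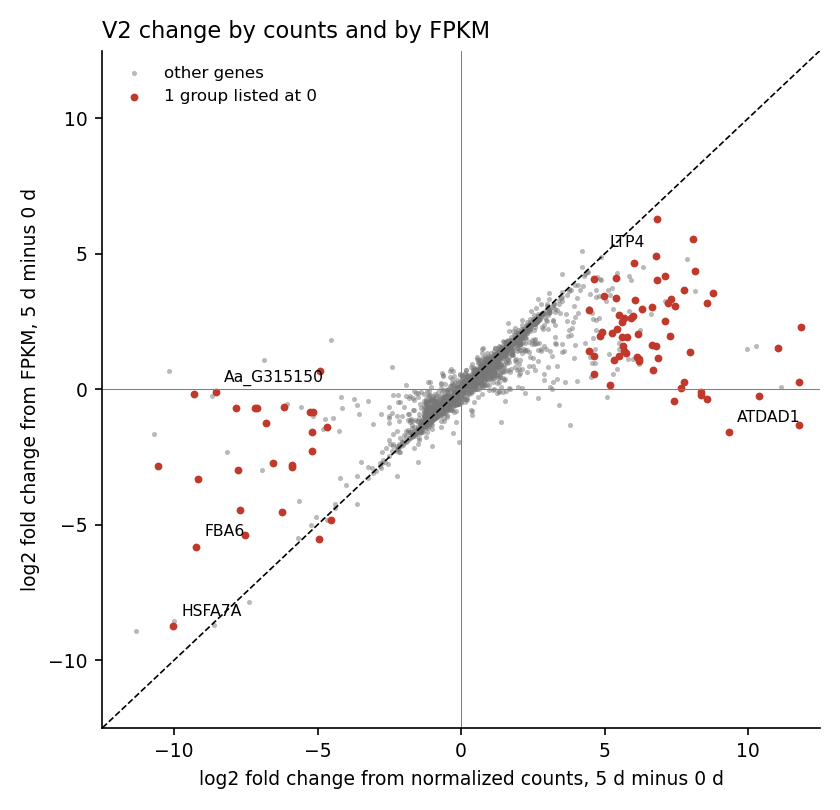
Log2 fold change in V2 buds, 5 d minus 0 d, from normalized counts (horizontal) and from FPKM (vertical) for listed genes tested by both, with the line of equality dashed. Genes with 1 group listed at 0 (red) reach large changes by counts, and ATDAD1 and Aa_G315150 lie at or past 0 by FPKM.

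The authors' deposited table for this comparison lists 1757 genes, 1108 with a positive and 649 with a negative log2 fold change. Of these, 1093 could be tested here, all with the same sign as in the authors' deposited table, and 1002 were called. The other 664 were not tested here, and 540 of them have a log2 fold change beyond 10 in the authors' deposited table. In that table's list 1 group was at 0 in all libraries for 723 of the listed genes, and for 563 of these the FPKM was at least 1 in all 3 libraries of that group.

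The V2 change differed from the V3 change in both directions. Of 3872 genes called in V2 and tested for a difference, 661 (17.1%) had such a difference called. LSU2, a gene of low sulphur, had 11.4, 11.9 and 9.88 normalized counts in V2 buds at 5 d, against 59.3, 13.1 and 47.6 at 0 d, and in V3 buds 526, 159 and 398 at 5 d, against 6.15, 18.2 and 10.2 at 0 d. Its V2 change of -1.52 was not called, and its difference from the V3 change was -6.33 (SE 0.86, limma adjusted p = 0.00138). KMD1 stood at the other end, with a V3 change of -2.88 and a V2 change 4.08 above it (SE 0.42, limma adjusted p = 0.000166). An unnamed gene (Aa_G108070, homologue AT3G19030) had 618, 552 and 513 in V2 buds at 5 d, against 209, 129 and 177 at 0 d, and in V3 buds 7.80, 13.7 and 15.9 at 5 d, against 138, 128 and 126 at 0 d. GLK1 and the phenylpropanoid gene F5H rose in V2 but by less than in V3, with differences of -1.58 and -1.66 (limma adjusted p = 0.0222 and 0.0331). HB53 and DRMH1 were not called in V2, and their V2 changes lay 2.80 and 4.50 above their V3 changes (limma adjusted p = 0.0356 and 0.0444).

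Markers of other tissues were few in the paired genes. Of 11 xylem markers XCP1 and XCP2 were paired, and both were listed at 0 at 0 d. At 5 d XCP1 had 109, 78.2 and 27.8 and XCP2 78.5 and 76.3 (the 0 of replicate 3 left out) normalized counts, with XCP1 FPKM of 4.86, 3.17 and 1.36 at 5 d, against 0.804, 0.0801 and 0.438 at 0 d. Summed, the 2 markers reached 27.8 to 188 normalized counts at 5 d, against 0 in every library at 0 d, the left-out 0 of XCP2 being counted as 0. They rose beside the cuticle, phenylpropanoid and wall genes, and their part in those results was not tested. Of 6 phloem markers APL and PP2-A1 were paired and neither was called, and their sum ran from 149.5 to 219 at 5 d, against 47.2 to 220.0 at 0 d. Of 4 senescence markers NAP and NYE1 were paired. NYE1, which removes magnesium from chlorophyll, rose by 0.99 and NAP was not called. The carpel gene CRC was the 1 floral marker of 5 paired, with 4.55, 0 and 3.59 at 5 d, against 105 and 63.4 (the 0 of replicate 1 left out) at 0 d, and its FPKM change of -1.48 was not called (limma adjusted p = 0.0638).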

How the data were processed

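RNA-seq of 4 groups of A. alpina lateral buds was used, with 3 libraries each that the series' design text calls biological replicates. HISAT2, StringTie, TopHat and DESeq2 are named in the submitters' processing notes, without roles, and the genome build is not given in the sources used here. The deposited table holds, per the file headers, normalized counts (a signal, counts divided by a size factor) of 19722 genes, where raw counts had been assumed. FPKM, log2 fold changes and adjusted p-values came from the authors' deposited tables of differing genes. All per-sample columns were used. Dividing each library by what 1 read is worth gave whole numbers for 100% of values (tolerance 0.05 reads).

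Zeros whose own group contradicted them were left out. The test was limma 3.58.1 (R 4.3.3; lmFit, eBayes with trend) on log2(normalized count + 1) over all 12 libraries with 1 mean per group, for genes with a mean of 10 or more and 2 or more usable libraries per group, with Benjamini-Hochberg adjustment over all genes tested and calls under 0.05. A log2 value includes the pseudocount, which understates changes of low genes. FPKM was tested as log2(FPKM + 0.1), an alternative chosen after seeing the data. edgeR 4.0.16 and DESeq2 1.42.0 ran on recovered reads of genes with no zero left out. Scripts were tested on simulated data, where limma called 26 of 93 genes changed 2-fold and 88 of 90 changed 4-fold. Far fewer genes were changed there than were called in the buds, and all genes shared 1 spread. These shares therefore cannot be carried over to the buds. A gene that was not called may still have changed 2-fold. Read totals set only counting error, and intervals are from the fit.

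The buds, the genes and the lists were chosen with earlier results of these data known. Genes named were bud arrest and flowering genes (HB21, HB40, HB53, NCED3, DRMH1, HIS1-3, TFL1, SVP and SMZ), the 12 largest called changes each way at a mean of 100 or more, with groups that did not overlap and no zero left out, up to 5 called and 2 uncalled members of each list, and the 5 largest zone differences each way. Genes named beyond this rule, as markers or as the only other members of a list, were chosen after their values were seen.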

Additional observations from a re-analysis of the deposited data

Results flagged for a closer look

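These genes were picked out because the 5 d minus 0 d change differed between V2 and V3 buds in the test of the difference itself (limma adjusted p under 0.05). Each value is the V2 log2 change minus the V3 log2 change.

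Among bud arrest, sugar and nitrogen genes the V2 change lay above the V3 change, by 4.50 for DRMH1, 4.08 for KMD1, 2.80 for HB53, 3.21 for NIA1, 2.53 for LBD39, 2.34 for BZIP1, 2.12 for TPS9, 1.73 for GLU1 and 1.49 for TPS11. The same direction held for the flowering repressors TFL1, at 2.78, and SVP, at 0.92, and for the boundary and meristem genes RAX2, at 2.84, and CUC1, at 1.3004. It also held for the cold genes GOLS3, at 5.64, and ADH1, at 2.39, the clock gene PRR5, at 2.54, the heat factor HSFB2B, at 1.87, ABI1, at 1.51, and Aa_G108070, at 5.07. ATDAD1, at 9.12, belongs to the genes whose V2 change by counts is not seen by FPKM.

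The V2 change lay below the V3 change for LSU2, at -6.33, CA1, at -6.08, ZW9, at -5.96, CRC, at -3.62, and XCP1, at -2.23. Growth genes with this direction were CYCA1;1, at -1.09, TCP15, at -1.03, PRPL11, at -0.75, and Aa_G646180, at -0.68. Wall, plastid and signalling genes with it were PME5, at -1.74, F5H, at -1.66, GLK1, at -1.58, PII, at -1.303, PYL4, at -0.97, HB4, at -0.78, PAR1, at -1.76, and the water channel PIP2;8, at -1.09.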

How the results depend on the processing

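The number of genes called over time in V2 buds, 4092 in the report, moved to 2165 with zeros kept as deposited, 1239 higher and 926 lower, where the median change of all genes was 0.37. Leaving out 1 library at a time gave 2267 to 3374 calls, 1264 to 1774 higher, 1003 to 1620 lower and 1061 to 1591 of at least 2-fold. The calls for the difference between zones, 1243 in the report, were 764 with zeros as deposited, 815 over genes with no zero left out and 731 to 1057 with 1 library left out. With zeros as deposited ADH1 was 1.69 and DRMH1 3.12, and by FPKM ATDAD1 was -1.57 and Aa_G55180 -0.30, each opposite in sign to the value in the report. HB53, which was not called, ran from -0.44 to 0.016 with 1 library left out. The cause of these changes was not tested.

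Of the 138 named genes, 120 were called. Other pseudocounts, other mean filters, TMM scaling, only the V2 libraries and only genes with no zero left out each lost at most 1 of those calls. Total scaling lost 4 and zeros judged by FPKM lost 5. FPKM itself kept 111, with 7 lost and 2 reversed in sign. Zeros as deposited kept 87, with 32 lost and 1 reversed. The reversed genes were not called either. Leaving out 1 library lost 7 to 21. Calls that ended without 1 library and are not given in the report were those of Aa_G55180, DDF1, GPAT6, CZF1, RAV1, TCP15, CRF5, RGL3, SPL15, RD22, MCM3, ORC6, HTA13, CUC3, RAX2, SMR8, GID1A, ZAT10, KNOLLE and TIP4;1. Of the 18 named genes not called, ABF2, DRMH1 and RAB18 were called with only the V2 libraries, CYCB2;3 with a pseudocount of 5 or with no zero left out, 5 genes by FPKM, 4 by edgeR and 10 by DESeq2, and HB21, CYCB2;3, ETR2, LSU2 and HSFB2B without 1 library. Same-numbered V2 libraries did not deviate together (correlations 0.0185, -0.0443 and -0.0251 over 10555 genes, against up to 0.102 between different numbers). These values cannot show whether same-numbered libraries share plants or a batch. With a replicate block 1864 genes were called higher and 1587 lower, 837 differed between zones, and 10 of the called named genes lost their call. The SE of the log2 change was 0.74 for HB21 and 0.52 for SMZ, which have low counts and a 0 left out, against 0.16 for SVP.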

Other observations

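Single genes of light signalling and of oxidative enzymes changed, in lists whose share of calls was not far from that of listed genes. Among listed genes with FPKM 49.7% were called, 32.1% higher and 17.6% lower. Of 11 light signalling genes 4 rose and 2 fell at 5 d (54.5% called), with a median of 0.47. HFR1, a factor that checks shade growth, had 447 and 322 (the 0 of replicate 1 left out) normalized counts at 5 d, against 0, 0 and 0 at 0 d, with FPKM of 1.03, 1.90 and 1.26 at 5 d, against 0.124, 0.0454 and 0.0248 at 0 d. PAR1, another brake on shade growth, fell by 1.05, and HB4 fell as given above. Of 30 cytochrome P450 genes 11 rose and 1 fell (40% called), with a median of 1.098. CYP81F3, of the glucosinolate enzymes, had 2367, 2160.0 and 1938 at 5 d, against 529.5, 236 and 265 at 0 d (log2 fold change 2.74, limma adjusted p = 0.000643). Of the 7 peroxidase genes 2 rose and 2 fell (57.1% called).

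Growth-related auxin and water genes went both ways. Of 19 SAUR genes, a family that responds fast to auxin, 5 rose and 3 fell. That is 42.1% called, against 49.7% of listed genes with FPKM. SAUR16 had 112, 249.6 and 142 normalized counts at 5 d, against 22.8, 34.1 and 22.7 at 0 d (log2 fold change 2.56, limma adjusted p = 0.00999), whereas SAUR50 changed by -1.70 (limma adjusted p = 0.000688). The auxin synthesis gene YUC2 had 59.2 and 40.4 (the 0 of replicate 2 left out) at 5 d, against 0, 0 and 0 at 0 d, and its FPKM was 1.89, 1.87 and 2.48 at 5 d, against 0.613, 0.672 and 0.572 at 0 d. Among 6 water channels, PIP1;3 and PIP2;8 of the plasma membrane fell by 1.05 and 0.58, and TIP4;1 of the vacuole changed by 2.65. Of 14 late embryogenesis abundant and dehydrin genes, which protect cells as they dry, 4 rose and 4 fell (57.1% called). Of 5 photosynthesis genes LHCB4.3, of the light-harvesting antenna, was the member called, at 1.80 (limma adjusted p = 0.0035). Of 4 genes of sugar transport and invertase 1 fell and none rose by limma, with 2 at an unadjusted p under 0.05.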
